A study of Mus musculus with 12 samples.

Results

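The 2 strands of the miR-140 hairpin, listed on the array as mmu-miR-140 and mmu-miR-140*, were followed across all 6 groups of a microarray study of mouse embryonic fibroblasts. They are 2 of the 650 miRNAs with probes on the array, and both were among the 175 miRNAs that passed the filter on dim probes. They were taken as the array rows that carry these 2 names and were chosen by their lower level in knockout cells, seen in an earlier analysis of the same arrays, so the genotype differences below are a description without a test. The fibroblasts had a C57BL/6 background and either lacked ATF6a (ATF6aKO) or were wild type for it (ATF6aWT). ATF6a sits in the membrane of the endoplasmic reticulum, moves to the Golgi under protein folding stress and is cut there by proteases, which frees a fragment that acts on genes in the nucleus. Cells of both genotypes were studied untreated and after 12 or 24 h in 2 ug/mL tunicamycin, a drug that blocks N-glycosylation and so brings about this stress. Each of the 6 groups had 2 arrays from experiments described as independent. A miRNA array does not measure the ATF6a transcript, which leaves the genotype labels unchecked.

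miR-140 is known as a miRNA of cartilage, where it is transcribed with its host gene Wwp2, depends on the cartilage regulator Sox9 and is needed for normal growth of the skeleton in mice. Both arms of its hairpin are loaded into Argonaute proteins, and each arm pairs with its own set of targets through its seed. In the naming used by this array, mmu-miR-140 is the arm from the 5′ side of the hairpin and mmu-miR-140* the arm from the 3′ side, now called miR-140-3p.

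The hairpin and the mature 3′ arm are shown because the results compare 2 products of this 1 precursor. Both were taken from RefSeq, build GRCm38.p6, where 1 of the 2 strands was matched. Mir140 lies inside the gene Wwp2 on chromosome 8, with the hairpin at chr8:107551244-107551313 on the plus strand and the 3′ arm at chr8:107551288-107551308. In the hairpin the capitals mark the 3′ arm, and in the mature sequence they mark the seed, bases 2 to 8.

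Mir140 hairpin: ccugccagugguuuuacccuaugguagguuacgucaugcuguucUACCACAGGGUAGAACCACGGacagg

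mmu-miR-140-3p: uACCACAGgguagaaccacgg

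The 3′ arm is 21 bases long with a GC content of 57.1%, and it occupies bases 45 to 65 of the 70-base hairpin. Its seed, ACCACAG, is shared by 1 other of the 1679 mature mouse miRNAs in the same table, mmu-miR-497b. The mature miR-140-5p is named only.

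Levels are log2 of a probe's signal divided by the 75th percentile of its array, taken over 87 probes well above background on all 12 arrays, so that 0 is a signal equal to that percentile. Each strand has 2 probes with 10 spots each per array, and its level is the mean of both probes on the log2 scale. Values were not allowed below a floor of -5.02. Treatment and slide cannot be told apart, since the 8 treated arrays shared slide 2 and the 4 untreated ones slide 1. Nor can genotype and position, since ATF6aKO arrays filled row position 2 of their slides and ATF6aWT arrays row position 1. Per array, 85 to 171 miRNAs were well above background. The lowest of these numbers, 85, 91 and 112, came from treated replicate 2 arrays. All treated replicate 2 arrays were scanned together as run 4. In that run the ATF6aWT array at 12 h had 144, within the 129 to 171 of the treated replicate 1 arrays, scanned as run 3.

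The cells carried the miRNAs of fibroblasts. Of 8 listed mesenchymal and fibroblast miRNAs, 6 were well above background on all 12 arrays, miR-143 on 10 and miR-145 on none. None of 5 epithelial, 5 haematopoietic, 3 neural and 1 hepatocyte miRNAs was well above background on any array. The muscle miRNA miR-206 was so on 3 treated arrays, and miR-294 of embryonic stem cells on 2, the replicate 2 arrays of both genotypes at 12 h. Of 5 listed cartilage miRNAs, only the 2 strands of miR-140 were detected. miR-455 and miR-675, which are known from chondrocytes, were well above background on no array. Fewer cells that contain miR-140 and less miR-140 per cell cannot be told apart in these pools of cells.

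mmu-miR-140 was lower in ATF6aKO cells than in ATF6aWT cells in all 3 conditions. In ATF6aKO cells its log2 levels in replicates 1 and 2 were -1.44 and -1.19 untreated, -1.77 and -2.27 at 12 h, and -1.73 and -1.74 at 24 h. In ATF6aWT cells they were -0.69 and -0.88 untreated, -1.60 and -0.83 at 12 h, and -1.02 and -0.56 at 24 h. Both probes were well above background on all 12 arrays, and in each condition both knockout arrays lay below both wild type arrays.

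mmu-miR-140* followed the same order between the genotypes. In ATF6aKO cells its log2 levels were -3.33 and -3.31 untreated, -3.74 and -4.29 at 12 h, and -3.98 and -4.27 at 24 h. In ATF6aWT cells they were -2.61 and -2.64 untreated, -2.999 and -3.41 at 12 h, and -3.14 and -3.51 at 24 h. Again no knockout array overlapped a wild type array of the same condition. This strand was near the limit of the array on part of the treated arrays. Its brighter probe, A_54_P3308, was well above background on 10 of 12 arrays and its dimmer probe, A_54_P3307, on 7. Neither probe was on ATF6aKO replicate 2 at 12 h or at 24 h. The dimmer probe was at the floor on 4 arrays, namely ATF6aWT replicate 2 at 24 h, ATF6aKO replicate 2 at 12 h and both ATF6aKO arrays at 24 h. On 6 arrays both probes were well above background and off the floor.

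**Figure D1:**
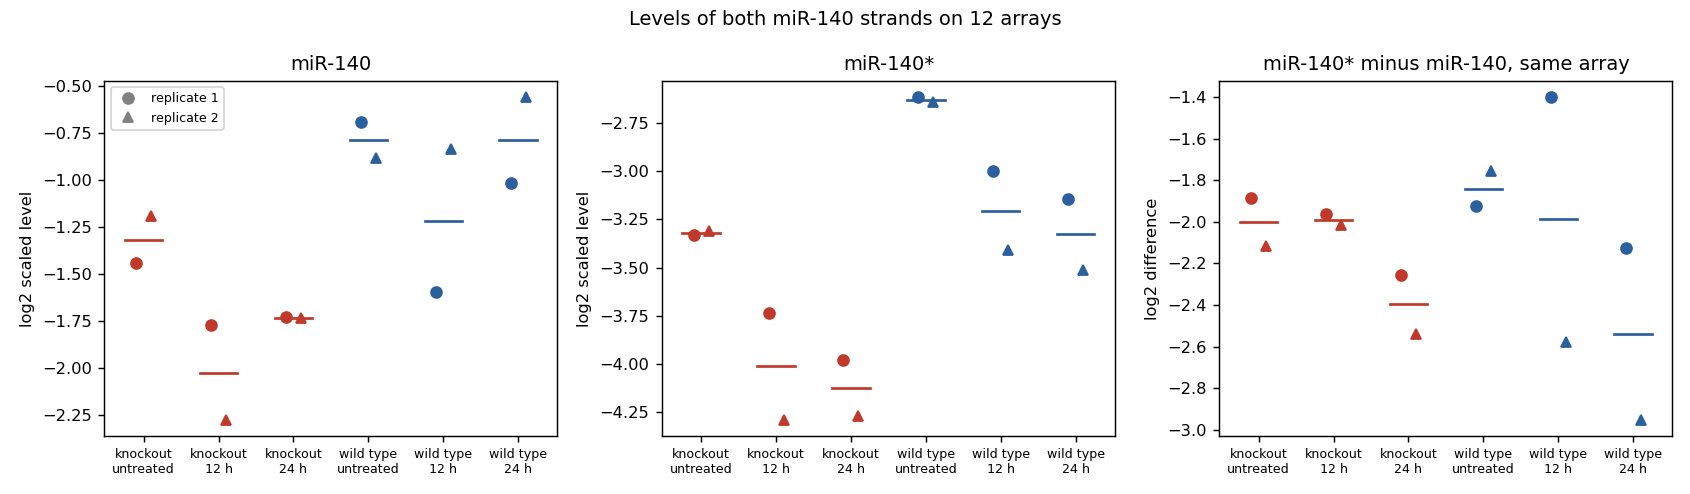
Log2 scaled level of miR-140 (left), of miR-140* (middle) and the difference of the 2 strands on the same array (right) in the 6 groups, knockout in red and wild type in blue. Circles are replicate 1, triangles replicate 2 and lines the mean of 2 arrays. Each knockout group lies below the wild type group of the same condition for both strands, and the within-array difference, miR-140* minus miR-140, spans -2.95 to -1.40.

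The group means of mmu-miR-140, from low to high, were -2.02 ± 0.35 in ATF6aKO at 12 h, -1.73 ± 0.0067 in ATF6aKO at 24 h, -1.32 ± 0.18 in untreated ATF6aKO, -1.22 ± 0.54 in ATF6aWT at 12 h, -0.79 ± 0.32 in ATF6aWT at 24 h and -0.79 ± 0.13 in untreated ATF6aWT (SD, n = 2 each). The 3 lowest groups were the 3 knockout groups. Untreated ATF6aKO overlapped ATF6aWT at 12 h, and the 3 wild type groups overlapped their neighbours in this order. For mmu-miR-140* the means were -4.13 ± 0.21 in ATF6aKO at 24 h, -4.01 ± 0.39 in ATF6aKO at 12 h, -3.33 ± 0.26 in ATF6aWT at 24 h, -3.32 ± 0.012 in untreated ATF6aKO, -3.20 ± 0.29 in ATF6aWT at 12 h and -2.63 ± 0.018 in untreated ATF6aWT (SD, n = 2 each). Untreated knockout cells thus stood among the treated wild type groups, and untreated wild type cells stood apart above the other 5 groups.

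Averaged over the 3 conditions, mmu-miR-140 differed between ATF6aKO and ATF6aWT by -0.76 ± 0.17 (log2, SE), which is 1.69-fold lower in knockout cells. mmu-miR-140* differed by -0.77 ± 0.13, or 1.70-fold lower, a value that includes its dimmer probe at the floor on 3 of the 4 treated knockout arrays. With the brighter probe alone it differed by -1.09. By condition, the difference of mmu-miR-140 was -0.53 ± 0.29 untreated, -0.81 ± 0.29 at 12 h and -0.94 ± 0.29 at 24 h. That of mmu-miR-140* was -0.69 ± 0.23, -0.81 ± 0.23 and -0.80 ± 0.23 in the same conditions. The median over all 175 miRNAs was -0.13, -0.011 and -0.016. The SE come from 1 spread shared by all 6 groups. Over all 175 miRNAs, the SD of the difference between replicates was 0.20 and 0.21 in the untreated groups, against 0.71 to 1.19 in the treated groups. A shared SE may therefore be too small between treated groups and too large between untreated groups, here and in the tests below.

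Knockout arrays lay below wild type arrays without overlap for 48.6% of all miRNAs untreated, 19.4% at 12 h and 26.9% at 24 h. In all 3 conditions together this held for 23 of 175 miRNAs (13.1%), both miR-140 strands among them. Ranked from the lowest averaged difference, mmu-miR-140* was number 10 and mmu-miR-140 number 11 of 175. These values chose the pair, and nothing is read from their place in the ranking.

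Set against the wild type array of the same scanning run, the knockout array differed by -1.44 to -0.18 for mmu-miR-140 and by -0.88 to -0.67 for mmu-miR-140*. That all are below 0 follows from groups that do not overlap. The widest and the narrowest for mmu-miR-140 both came from 12 h, where it differed by -0.18 in run 3 and by -1.44 in run 4. This gap depended on the scaling, with 75th percentiles of 481 and 567 (ATF6aKO, ATF6aWT) in run 3 and 571 and 337 in run 4. Unscaled, mmu-miR-140 read 7.14 and 7.55 in run 3 and 6.88 and 7.56 in run 4. Without ATF6aWT replicate 2 the 12 h difference of mmu-miR-140 was -0.43, and without ATF6aWT replicate 1 it was -1.19. For mmu-miR-140* at 12 h it was -0.53 without ATF6aKO replicate 2.

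The size of the difference in untreated cells depended on the scaling of the arrays. So did most separations of knockout from wild type arrays. Unscaled, the mean log2 signal of mmu-miR-140 was 7.86 and 7.67 on the untreated ATF6aKO arrays, against 7.85 and 7.83 on the untreated ATF6aWT arrays, and these groups overlap. The 75th percentile used for scaling was 630 and 467 on the same ATF6aKO arrays, against 373 and 418 on the ATF6aWT arrays. With no scaling the untreated difference was -0.074 for mmu-miR-140 and -0.23 for mmu-miR-140*, while the median of all miRNAs moved to 0.16. Relative to that median the differences were -0.23 and -0.39, compared with -0.41 and -0.57 relative to the median in the scaled values. At 24 h without scaling the differences were -0.40 for each strand, and relative to the median -0.65 for each. Unscaled, mmu-miR-140 overlapped between the genotypes at 24 h too, with 7.19 and 6.47 in ATF6aKO cells against 7.55 and 6.90 in ATF6aWT cells. At 12 h it did not overlap, with 7.14 and 6.88 against 7.55 and 7.56. Unscaled mmu-miR-140* overlapped between the genotypes in all 3 conditions. No alternative turned the sign of a genotype difference of either strand.

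**Figure D2:**
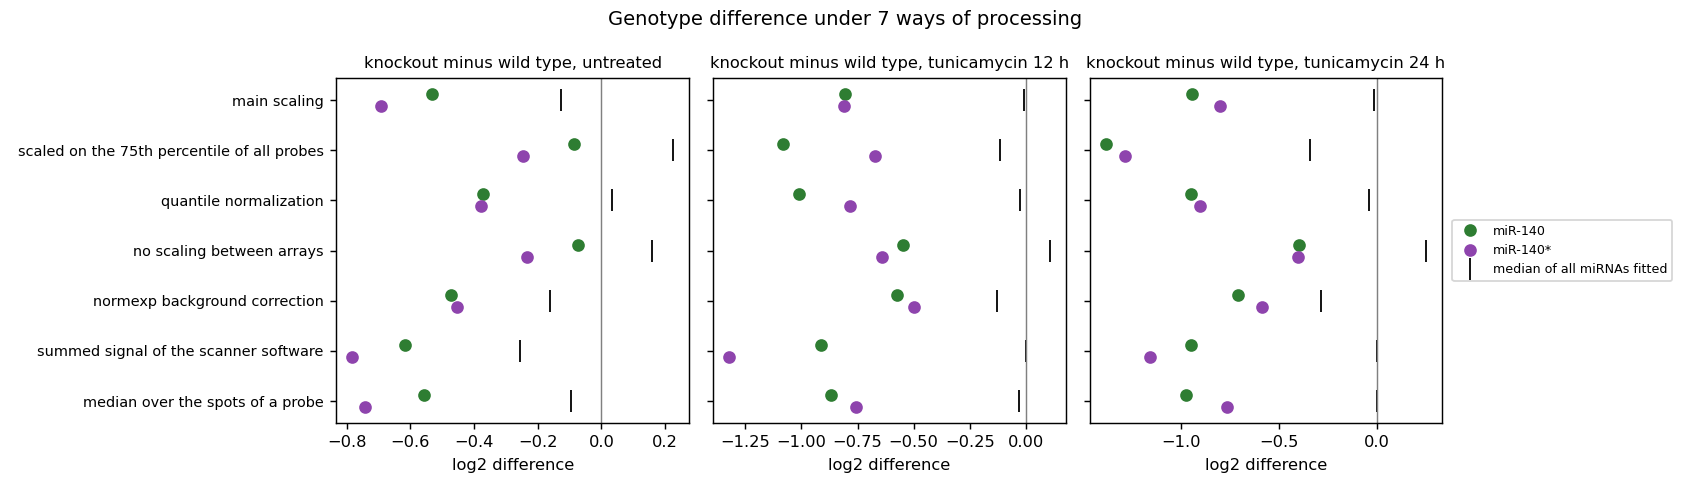
Knockout minus wild type log2 difference (x axis) of miR-140 (green) and miR-140* (purple) under 7 ways of processing (y axis), untreated, at 12 h and at 24 h, with the median of all fitted miRNAs as a black mark. Both strands lie below 0 and below the median in every panel, and the untreated differences of miR-140 are nearest to 0, at -0.074 without scaling and -0.085 with scaling on all probes.

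The individual probes gave the same sign for each genotype difference. For mmu-miR-140, probe A_54_P1075 differed by -0.55, -0.88 and -0.92 (untreated, 12 h and 24 h) and probe A_54_P1076 by -0.51, -0.74 and -0.96. For mmu-miR-140*, the brighter probe A_54_P3308 differed by -0.69, -1.26 and -1.30. The dimmer probe differed by -0.69, -0.36 and -0.30, and its treated values lie in part at the floor, which limits how far a difference can be seen. Among the signals of the brighter probe without scaling, the 4 treated ATF6aKO arrays read 83.8, 48.3, 62.7 and 25.5 (12 h replicates 1 and 2, then 24 h replicates 1 and 2), against 204, 79.5, 104 and 43.9 on the treated ATF6aWT arrays in the same order. On untreated arrays it read 136 and 101 in ATF6aKO cells, against 128 and 148 in ATF6aWT cells.

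**Figure D3:**
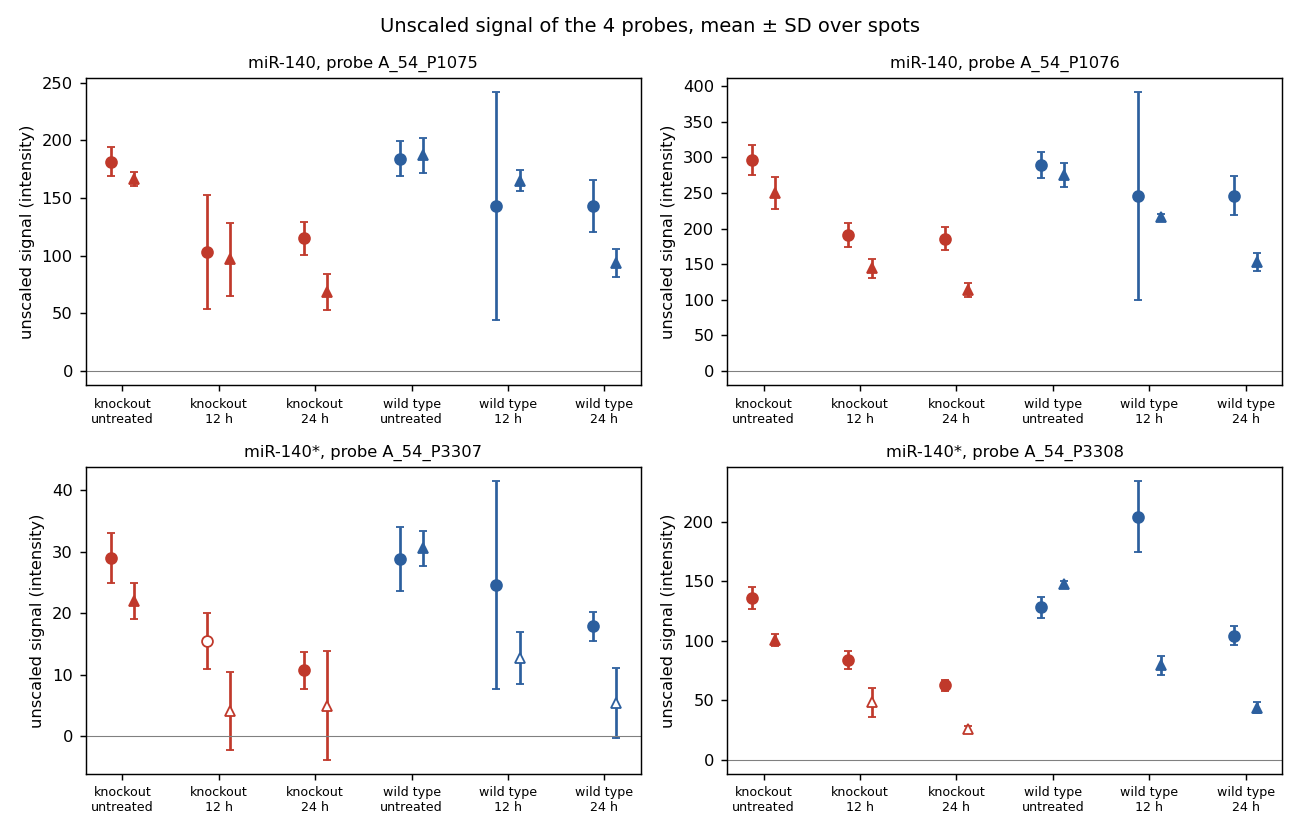
Unscaled signal (intensity, mean ± SD over spots of 1 array) of the 2 probes of miR-140 and the 2 probes of miR-140* on each of 12 arrays, knockout in red and wild type in blue, circles for replicate 1 and triangles for replicate 2. Open symbols are probes not well above background, all of them miR-140* on treated arrays, and the spots of both miR-140 probes scatter most on the wild type replicate 1 array at 12 h.

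The response to tunicamycin was tested with limma over all 175 miRNAs with Benjamini-Hochberg adjustment. mmu-miR-140 did not pass the threshold of 0.05 in any of the 4 treatment comparisons. In ATF6aKO cells the 12 h level differed from the untreated level by -0.71 ± 0.29 (limma, adjusted p = 0.147) and the 24 h level by -0.41 ± 0.29 (adjusted p = 0.442). In ATF6aWT cells the same differences were -0.43 ± 0.29 (adjusted p = 0.282) and -0.0031 ± 0.29 (adjusted p = 1). Both treated knockout arrays lay below both untreated ones at each time, as they did for 38.9% of all miRNAs at 12 h and 36.6% at 24 h, and the treated wild type arrays overlapped the untreated ones. The 95% interval of the wild type change at 24 h ran from -0.68 to 0.67 and that of the knockout change at 12 h from -1.38 to -0.03.

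mmu-miR-140* passed in 1 of the 4 treatment comparisons. In ATF6aWT cells it fell at 24 h, with a difference of -0.70 ± 0.23, or 1.62-fold lower (limma, adjusted p = 0.0418), where 41.1% of all miRNAs passed and 33.7% passed with a lower level. At 12 h in the same cells the difference was -0.58 ± 0.23 (adjusted p = 0.0748), where 44.6% of all miRNAs passed. In ATF6aKO cells it was -0.69 ± 0.23 at 12 h (adjusted p = 0.0848) and -0.81 ± 0.23 at 24 h (adjusted p = 0.0701), where 17.1% and 10.3% of all miRNAs passed. Both treated arrays lay below both untreated arrays in all 4 comparisons, as they did in ATF6aWT cells for 55.4% of all miRNAs at 12 h and 51.4% at 24 h. Each scanning run held either untreated or treated arrays, so a treatment difference cannot be adjusted for run. With the run as a random block instead (correlation 0.235), the other 3 comparisons passed too. The limma adjusted p values were 0.0370 at 12 h and 0.0236 at 24 h in ATF6aKO cells and 0.0348 at 12 h in ATF6aWT cells. With the replicate number as the block they were 0.0219, 0.0181 and 0.0205 in the same order. Replicate differences correlated at -0.66 to -0.45 between treated and untreated groups, so this number does not pair treated with untreated arrays. Neither block separates treatment from run, and these 3 calls are not read as responses.

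The single call depended on the processing and on single arrays. It was kept with the replicate block (limma, adjusted p = 0.0105), the run block (0.0164) and only the groups compared (0.0483). A fit without the 4 arrays of run 4 leaves 1 array per treated group. It cannot gauge their spread, so it is not counted as keeping the call. The call was lost with the brighter probe alone, where the difference was -0.42 (limma, adjusted p = 0.461). With the median in place of the mean over spots it was lost too, at -0.64 (adjusted p = 0.0747). It was also lost when any 1 of 7 arrays was left out. The adjusted p was 0.151 and 0.135 without ATF6aWT untreated replicate 1 or 2, and 0.231 without ATF6aWT replicate 2 at 24 h. It was 0.0743 without either untreated ATF6aKO array, and 0.0538 without either ATF6aKO array at 24 h, and leaving out these 4 knockout arrays in turn left the difference itself at -0.70. With the scanner software's own summed signal per miRNA the difference turned to 0.42, and in the authors' deposited table to 0.19.

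The summed signals of mmu-miR-140* stood apart on 1 set of arrays. On the 8 arrays of runs 1 to 3, the summed signal of this strand equalled the sum of the summed signals of its 2 probes within 1%. On the 4 arrays of run 4 it did not. There it was 192 at 12 h and 138 at 24 h in ATF6aKO cells, where the 2 probes sum to 34.7 and 20.2, and 297 and 193 in ATF6aWT cells, where they sum to 59.3 and 32.7. It was therefore 5.00 to 6.83 times the sum of the probes. For mmu-miR-140 the values agreed within 1% on all 12 arrays. Over all detected miRNAs of an array, 54.3% to 67.5% agreed within 1%, so the mismatch is not limited to mmu-miR-140* or to run 4. The cause was not tested, and the probe signals are used for the levels given here.

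Between 24 h and 12 h neither strand passed in either genotype. For mmu-miR-140 the difference was 0.29 ± 0.29 in ATF6aKO cells (limma, adjusted p = 0.787) and 0.43 ± 0.29 in ATF6aWT cells (adjusted p = 0.617). For mmu-miR-140* it was -0.11 ± 0.23 in ATF6aKO cells (adjusted p = 0.916) and -0.12 ± 0.23 in ATF6aWT cells (adjusted p = 0.875). Of all miRNAs, 2.29% passed in ATF6aKO cells and 1.14% in ATF6aWT cells. The 24 h knockout arrays lay above the 12 h knockout arrays for mmu-miR-140, as for 16% of all miRNAs, and the other 3 sets of arrays overlapped. With the median over spots these knockout arrays overlapped as well, at -1.74 and -1.72 at 24 h, against -1.73 and -2.15 at 12 h.

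Whether the response depended on ATF6a was tested as the difference of the knockout and wild type responses, and neither strand passed. For mmu-miR-140 the 12 h value was -0.28 ± 0.41 (limma, adjusted p = 0.756) and the 24 h value -0.41 ± 0.41 (adjusted p = 0.593). For mmu-miR-140* it was -0.12 ± 0.32 at 12 h (adjusted p = 0.912) and -0.11 ± 0.32 at 24 h (adjusted p = 0.91). The values of mmu-miR-140* include the dimmer probe at the floor. With the brighter probe alone the 12 h value was -0.57 (limma, adjusted p = 0.627) and the 24 h value -0.61 (adjusted p = 0.561), and with the floor halved -0.37 and -0.44. Of all miRNAs, 9.71% passed at 12 h and 13.1% at 24 h. The 95% intervals reached from -1.36 to 0.54 for mmu-miR-140 at 24 h and from -0.86 to 0.64 for mmu-miR-140*, so sizable differences in response in either direction lie within them.

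**Figure D4:**
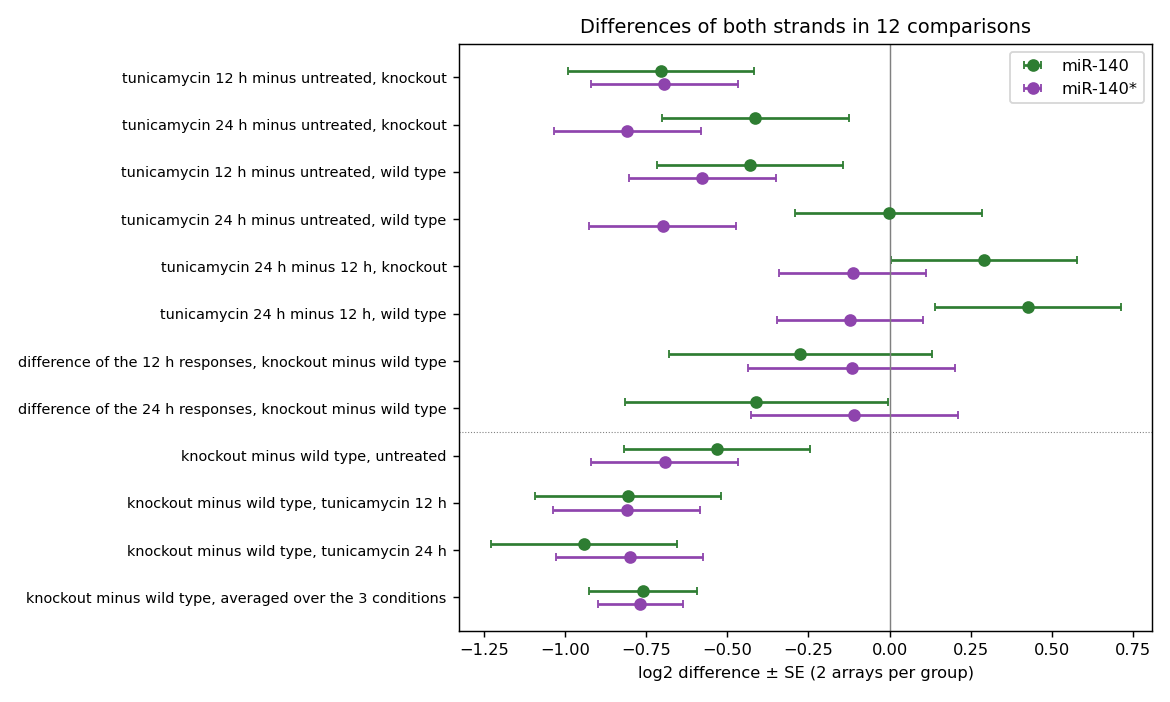
Log2 differences ± SE of miR-140 (green) and miR-140* (purple) in 12 comparisons, with the 8 tested comparisons above the dotted line and the 4 genotype differences, given without a test, below it. The only tested difference past the threshold is the miR-140* difference of -0.70 at 24 h in wild type cells, and all 8 genotype differences lie below 0.

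The 2 strands were also compared on the same array, where the scaling cancels unless a probe is at the floor. This leaves the scaling in the value on the 4 arrays where the dimmer miR-140* probe is at the floor, ATF6aWT replicate 2 at 24 h with its -2.95 among them. A single difference depends on how brightly each probe binds, so changes of this difference are compared and not its size. miR-140* minus miR-140 averaged -2.00 ± 0.16 untreated, -1.99 ± 0.04 at 12 h and -2.40 ± 0.20 at 24 h in ATF6aKO cells, and -1.84 ± 0.12, -1.99 ± 0.83 and -2.54 ± 0.58 in ATF6aWT cells (SD, n = 2 each). Treated arrays differed from untreated arrays by -0.31, averaged over both genotypes (two-sided exact permutation test within genotype, 225 regroupings, p = 0.276, smallest possible 0.00444). With the brighter miR-140* probe alone the value was -0.24 (exact permutation test, p = 0.431). Over the 6 group means the levels of the 2 strands had a Pearson r of 0.87, a description over groups that share arrays, scaling and slides.

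The scaled levels of the strands moved apart between replicates of treated wild type cells. Replicate 2 minus replicate 1 of mmu-miR-140 was 0.76 at 12 h and 0.46 at 24 h, while for mmu-miR-140* it was -0.41 and -0.37. Unscaled, mmu-miR-140 read 7.55 and 7.56 at 12 h and 7.55 and 6.90 at 24 h (replicates 1 and 2). mmu-miR-140* read 6.15 and 4.99, then 5.43 and 3.94. The rise of mmu-miR-140 in replicate 2 thus depended on the scaling. In treated ATF6aKO cells both strands were lower in replicate 2 at 12 h, by 0.50 for mmu-miR-140 and 0.55 for mmu-miR-140*. Among 15 pairs of strands with both members tested, miR-140 included, both treatment differences were below 0 in 8 pairs at 12 h and 8 at 24 h in ATF6aKO cells. In ATF6aWT cells this held for 12 and 11 pairs. Both were above 0 in 3 and 3 pairs in ATF6aKO cells and 2 and 2 in ATF6aWT cells, and opposite in 1 and 2 in each genotype. Of all single miRNAs, 58.9% and 50.3% were below 0 in ATF6aKO cells and 65.7% and 63.4% in ATF6aWT cells. Whether strands move together was not tested.

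A block of dim spots moved with the 12 h arrays. In a central block of each 12 h array, chosen after the spots were seen, bright probes (median over 50) had many spots below 50% of their probe's median. Their share in the block was 75.9% and 25.8% on the ATF6aKO arrays and 100% and 25.8% on the ATF6aWT arrays, replicates 1 and 2, and 0% on the other 8 arrays. Of the 20 spots of mmu-miR-140, 5 lie in the block on every array. In all, 4 and 4 of its 20 spots were dim on the ATF6aKO arrays at 12 h, and 6 and 2 on the ATF6aWT arrays. The spot CV of probe A_54_P1075 reached 69.1% on ATF6aWT replicate 1 at 12 h.

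With the median over spots, mmu-miR-140 at 12 h read -1.73 and -2.15 in ATF6aKO cells, against -1.29 and -0.86 in ATF6aWT cells. The knockout arrays again lay below the wild type arrays. The 12 h response became -0.61 in ATF6aKO cells and -0.31 in ATF6aWT cells, and the genotype difference at 12 h was -0.87.

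**Figure D5:**
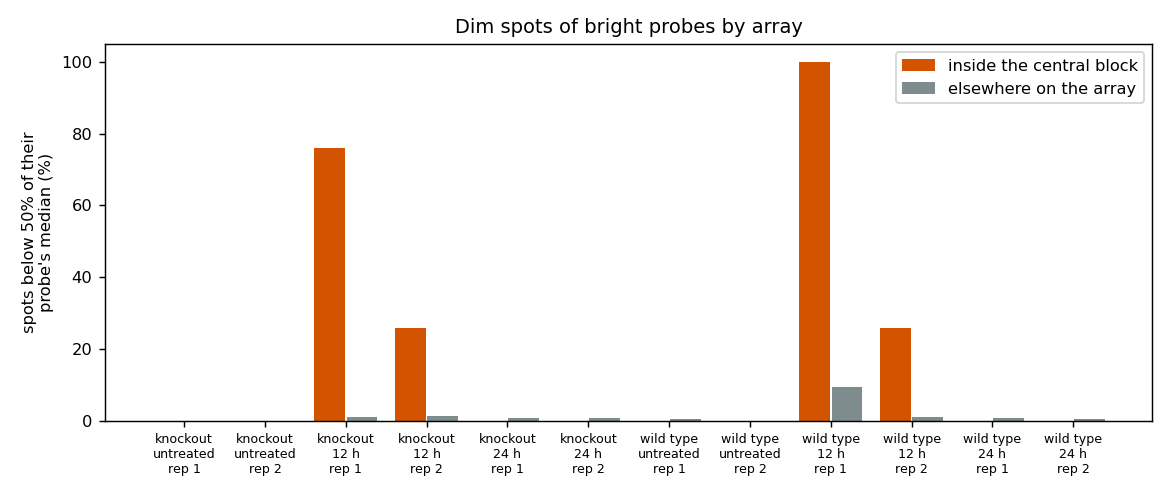
Percent of spots of bright probes that read below 50% of their probe's median, inside the central block (orange) and elsewhere on the array (grey), for each of 12 arrays. The 4 arrays of the 12 h groups stand out, with 25.8% to 100% of spots in the block, against 0% on the other 8 arrays.

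Other miRNAs with known roles in cartilage were followed as a list of 20, of which 15 were tested. In ATF6aKO cells, 7 passed the threshold with a lower level at 12 h and 6 at 24 h, as did 14.3% and 8% of all miRNAs. In ATF6aWT cells, 9 passed with a lower level at 12 h and 8 at 24 h, as did 38.3% and 33.7% of all miRNAs. Each of these counts includes miR-146a and miR-222, whose treated values are at the floor in both genotypes, so the size of their falls was not measured. No member passed with a higher level. Some differences above 0 did not pass, such as miR-27a in ATF6aWT cells with a 12 h difference of 0.26 (limma, adjusted p = 0.406) and a 24 h difference of 0.44 (adjusted p = 0.193). The median of the list was -0.41 at 12 h and -0.24 at 24 h in ATF6aKO cells, beside -0.087 and -0.00049 over all miRNAs. In ATF6aWT cells it was -0.65 and -0.37, beside -0.27 and -0.21. The list was written with results of these arrays known.

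Members that fell included miR-199a-3p and miR-214, which come from the Dnm3os transcript of mesenchymal cells. miR-199a-3p changed in ATF6aKO cells by -1.18 ± 0.14 (limma, adjusted p = 0.0018) after 12 h and by -1.06 ± 0.14 after 24 h (adjusted p = 0.00284). In ATF6aWT cells it changed by -0.89 ± 0.14 (adjusted p = 0.00224) and by -0.85 ± 0.14 (adjusted p = 0.00284). miR-214 changed in ATF6aKO cells by -1.29 ± 0.19 at 12 h and by -1.41 ± 0.19 at 24 h. It passed in ATF6aWT cells too, at -0.65 ± 0.19 and -0.83 ± 0.19 (limma, adjusted p = 0.0253 and 0.00949). miR-26a changed in ATF6aWT cells by -1.44 ± 0.20 and by -1.50 ± 0.20, and passed in ATF6aKO cells at -1.10 ± 0.20 and -0.82 ± 0.20 (limma, adjusted p = 0.00971 and 0.0458). miR-21, a miRNA abundant in fibroblasts, changed in ATF6aWT cells by -1.03 ± 0.18 and by -1.02 ± 0.18. Unlike for miR-199a-3p, miR-214 and miR-21, the probes of miR-26a were not all well above background and off the floor on all 12 arrays. The size of its fall may depend on this. In ATF6aKO cells miR-21 did not pass, with a 12 h difference of -0.54 ± 0.18 (limma, adjusted p = 0.0916) and a 24 h difference of -0.55 ± 0.18 (adjusted p = 0.0993). The difference of the miR-21 responses was 0.49 and 0.48 (adjusted p = 0.315 and 0.31). In the difference of the responses, miR-222 alone of the 15 members was past the threshold, beside 9.71% and 13.1% of all miRNAs. Its treated values are at the floor, so its -0.62 at both times only restates the untreated knockout minus wild type difference of 0.62 and is not a measured response.

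Among 30 miRNAs measured on all 12 arrays, the group means most like those of mmu-miR-140 were those of miR-130a (Pearson r of 0.70 over 6 group means), miR-22 (0.67), miR-214 (0.52), let-7i (0.47) and let-7c (0.40). For mmu-miR-140* they were miR-214 (0.75), miR-130a (0.75), let-7i (0.64), miR-21 (0.61) and miR-22 (0.59). The correlations are a description over 6 groups, and the median over the 30 miRNAs was -0.094 for mmu-miR-140 and -0.42 for mmu-miR-140*. miR-214 read 0.052, -1.24 and -1.36 in ATF6aKO cells untreated, at 12 h and at 24 h, and -0.19, -0.84 and -1.02 in ATF6aWT cells. miR-214 shared the lower treated level but not a lower untreated level in ATF6aKO cells. The level of miR-130a was -0.31, -1.01 and -0.66 in ATF6aKO cells in that order, and 0.24, -0.88 and -0.50 in ATF6aWT cells.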

How the data were processed

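Total RNA of mouse embryonic fibroblasts, 100 ng per array, was labelled with Cy3 and hybridised to 12 single-colour arrays, per the labels' protocols. Spot intensities were deposited as Agilent Feature Extraction 10.7.1.1 wrote them, per the submitters' processing notes, background-subtracted and not scaled between arrays. The flags for outlier spots and for signals well above background are the scanner software's, as deposited. The authors' deposited table holds log2 values that equal log2 of the software's summed signal within 1e-05.

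Control spots (715 of 13715) and spots marked as outliers were left out, and saturation affected none. A probe's signal is the mean of its spots, and the probe was well above background where over 50% of them were. Signals were scaled to the 75th percentile of 87 probes on the same array, floored at 0.0309 and log2-transformed. Probes had to be well above background on both arrays of 1 group or more, and a miRNA's level is the mean over such probes, for 175 of 650 miRNAs.

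The model, 6 group means fitted by limma 3.58.1 (R 4.3.3), had 6 residual degrees of freedom and 1.16 from the prior. Each of the 8 comparisons was adjusted by Benjamini-Hochberg on its own. Genotype differences got no p-value. The members, lists and rules were chosen with earlier results of these data known. Named were both strands, the 5 miRNAs with the most similar group means and up to 4 passing list members per comparison. Values of such members were also given for the other genotype. The fit was also run on simulated data with independent noise and 1 SD per miRNA in all groups. Those data lack the wider spread of the treated arrays, so nothing is read from them here. No 2 arrays held identical values. Nothing in the labels says more of the replicates than that the experiments were independent, and their number limits the precision.

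Alternatives covered scaling, background correction (normexp, offset 50, on the median rather than the mean spot signal), filters, floor, probe rule, blocks and arrays left out.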

Additional observations from a re-analysis of the deposited data

How the results depend on the processing

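Values are log2 differences. No genotype difference changed sign. The run block was a random effect in the 4 treatment comparisons, which cannot be adjusted for run, and a fixed effect in the other comparisons. Replicate block and run block left the estimates as they were and brought miR-140* past the threshold at 12 h in knockout cells (-0.69, limma adjusted p = 0.0219 and 0.0370), at 24 h in knockout cells (-0.81, 0.0181 and 0.0236) and at 12 h in wild type cells (-0.58, 0.0205 and 0.0348). The block on replicate number changed no other call of either strand. Replicate differences correlated at 0.82 to 0.94 between treated groups and 0.74 between untreated groups, within which a replicate number stands for 1 scanning run. Between treated and untreated groups they correlated at -0.66 to -0.45, so the numbers did not pair treated with untreated samples. Leaving out the 4 arrays of run 4 leaves each treated group with 1 array assumed to vary like the others, so no call of that fit is read. Without run 4, miR-140* differed at 12 h by -0.42 in knockout and -0.37 in wild type cells. At 24 h in knockout cells it differed by -0.66, and miR-140 differed at 12 h in wild type cells by -0.81. There the difference of the 12 h responses of miR-140 turned to 0.36 and its genotype difference at 12 h moved to -0.18.

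For miR-140* in wild type cells at 24 h, the call was also lost with the floor halved (-0.71), no filter (-0.70), quantile normalization (-0.51), scaling on all probes (-0.31), no scaling (-0.90), the brighter probe (-0.42) and the median over spots (-0.64). The value turned to 0.060 with normexp. With only probes above background on all arrays, miR-140* had no value. The highest limma adjusted p over all alternatives was 0.992.

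With the summed signal, miR-140* differed by 0.052 at 24 h in knockout cells, 0.53 at 12 h and 0.42 at 24 h in wild type cells, and 0.066 for 24 h against 12 h in knockout cells. The genotype difference was -1.32 at 12 h, -1.15 at 24 h and -1.09 averaged. In the authors' deposited table, fitted without scaling, miR-140* differed by 0.27 at 12 h in knockout cells, and by 0.96 at 12 h and 0.19 at 24 h in wild type cells. miR-140 differed by -0.19 and -0.30 for 24 h against 12 h in knockout and wild type cells. Genotype differences there were -0.062 untreated, -0.41 at 24 h and -0.33 averaged for miR-140, and -0.23 untreated for miR-140*.

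The miR-140 difference at 24 h in wild type cells, near 0, turned to 0.068 (brighter probe), 0.0055 (median over spots), 0.054 (normexp), 0.089 (quantile) and 0.14 (all probes). For 24 h against 12 h, miR-140* turned to 0.10 in knockout and 0.18 in wild type cells (normexp), to 0.090 and 0.21 (quantile) and to 0.56 in wild type cells (all probes). miR-140 turned to -0.18 in knockout and -0.33 in wild type cells without scaling. The cause of these turns was not tested.

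The differences of responses of miR-140* stayed below 0, from -0.70 to -0.014 at 12 h and from -1.04 to -0.021 at 24 h, in all alternatives that leave out no single array. Genotype differences of miR-140* moved with the brighter probe (-1.26 at 12 h, -1.30 at 24 h, -1.09 averaged), the floor halved (-1.06, -1.14), normexp (-0.45 untreated, -0.50 at 12 h, -0.51 averaged), quantile (-0.38 untreated), all probes (-0.25 untreated, -1.28 at 24 h) and no scaling (-0.23 untreated, -0.40 at 24 h, -0.43 averaged). Those of miR-140 moved to -0.085 untreated and -1.38 at 24 h with all probes, and to -0.074, -0.40 and -0.34 (untreated, 24 h, averaged) without scaling.

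With 1 array left out, miR-140* in wild type cells ran from -0.88 to -0.51 at 24 h and from -0.78 to -0.37 at 12 h, and in knockout cells from -0.97 to -0.42 at 12 h and from -0.95 to -0.66 at 24 h. It passed at 12 h in wild type cells without either knockout 12 h array (adjusted p = 0.0380), at 12 h in knockout cells without knockout 12 h replicate 1 (0.0184), and at 24 h in knockout cells without either knockout 12 h array (0.0290). 24 h against 12 h ran from -0.39 to 0.16 in knockout and -0.33 to 0.083 in wild type cells. Its differences of responses ran from -0.39 to 0.16 at 12 h and -0.29 to 0.076 at 24 h, and its genotype difference at 12 h from -1.09 to -0.53. miR-140 ran from -0.23 to 0.23 at 24 h in wild type cells, its difference of 12 h responses from -0.66 to 0.11 and its genotype difference at 12 h from -1.19 to -0.43.

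Counts of all miRNAs past the threshold also depended on processing. Where no single array was left out, the highest count of each comparison came from the fit without run 4, with 1 array per treated group. Over the alternatives that leave out no single array, 30 ran from 0 to 66 and 18 from 0 to 52 in knockout cells (12 and 24 h), 78 from 0 to 110 and 72 from 0 to 97 in wild type cells. For 24 h against 12 h, 4 in knockout and 2 in wild type cells ran from 0 to 13 and 0 to 23, and the differences of responses, 17 and 23, from 0 to 70 and 0 to 82. With scaling on all probes, limma gave 0 in all 8 comparisons, with 10, 11, 13, 11, 2, 0, 1 and 2 at an unadjusted p under 0.05 in that order. With 1 array left out, the counts ran in knockout cells from 13 to 72 at 12 h (13 without untreated knockout replicate 2, 72 without knockout 12 h replicate 1), from 8 to 32 at 24 h (8 without knockout 24 h replicate 2, 32 without either knockout 12 h array), and from 0 to 56 for 24 h against 12 h (0 without knockout 24 h replicate 1, 56 without knockout 12 h replicate 1). In wild type cells they ran from 55 to 94, from 53 to 87 and from 0 to 7, and for the differences of responses from 10 to 34 and from 11 to 45.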
